A study of Mus musculus with 50 samples.

Results

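The report covers the cytoskeleton and motor protein clones of a spotted mouse cDNA array, measured in the hypothalamic paraventricular nucleus (PVN), the region that starts the hormonal stress response. A clone was a member when the name given to it in the array files began with actin, actinin, actin related protein, cofilin, profilin, tropomyosin, myosin, tubulin, microtubule-associated protein, kinesin, dynein, dynactin, neurofilament or internexin. By this rule 178 of the 22824 non-control clones were members. They carried 111 names, of which 43 were spotted as more than 1 clone. The largest families were kinesin with 45 clones, myosin with 30, tubulin with 25 and the microtubule-associated proteins with 21. Actin, the actin related proteins and dynein had 9 clones each, dynactin and tropomyosin 6 each, neurofilament and profilin 5 each, actinin 4, cofilin 3 and internexin 1.

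Nerve cells depend on these proteins for their shape and for the supply of their axons. Actin filaments form the cortex, the spines and the growth cone, and microtubules built from alpha and beta tubulin form the tracks of axons and dendrites. Kinesins carry cargo mostly outward along these tracks, and cytoplasmic dynein with its activator dynactin carries cargo back toward the cell body. Neurofilaments and alpha-internexin are the intermediate filaments of neurons and fill the axon.

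The mice were single-housed males of 3 to 5 months of the inbred strains C57BL/6J and DBA/2J. Stressed animals swam for 5 min and were killed 4 h or 8 h later, non-stressed animals did not swim, and no group carried a mutation or a drug. RNA from micropunches of the PVN was pooled over 6 animals per condition and amplified in 2 rounds, so that each of the 6 conditions was 1 RNA pool. In each of 5 comparisons a pair of pools was labelled with Cy3 and Cy5 and hybridised on 10 arrays, 5 in each dye orientation. The first comparison set non-stressed DBA/2J against non-stressed C57BL/6J, and the other 4 set each stressed pool against the non-stressed pool of its strain. The 10 arrays repeat the labelling and hybridisation of the same RNA, and therefore every standard error (SE) and p-value below compares single pools and leaves out the spread between animals. The comparisons at 4 h and 8 h within a strain share their non-stressed pool, and the non-stressed DBA/2J and C57BL/6J pools also enter the comparison of the strains.

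All values are log2 ratios of one pool over another, taken as DBA/2J over C57BL/6J or as stressed over non-stressed by the labelled dyes. These signs are opposite to those of the folds the study lists in every comparison, and which direction holds was not settled. Real-time PCR by the study used animals that were not pooled, for genes that are not members. It gave higher Gnai2 at 4 h and higher App at 8 h in stressed DBA/2J, the sign of the listed folds. In situ hybridisation by the study also gave a rise after stress. In C57BL/6J the PCR rise of Gnai2 was not significant. No such measure of the strains without stress was reported, and none was made here. With the sign turned, each "higher" below reads "lower" and each rise reads as a fall, while sizes and tests stay the same. Counts of arrays above the empty spots and intensities given for 1 pool would then belong to the other pool of its comparison. A clone was called when its log2 ratio was at least 0.5 either way and its adjusted p, from limma with Benjamini-Hochberg adjustment over all 22824 clones, was under 0.05. In a bulk punch, fewer cells of a type and less RNA per cell cannot be told apart. Clones of closely related actins and tubulins can bind each other's RNA, and the ratios of such clones are uncertain as to the gene.

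The depth of signal differed between comparisons. Empty spots gave the background, and a spot counted as above it when its intensity exceeded that of 95% of the empty spots on its array. Of the 178 members, 117 passed this on at least 5 arrays of either pool in C57BL/6J 4 h after stress, 66 at 8 h, 62 in DBA/2J at 4 h, 54 in the strain comparison and 31 in DBA/2J at 8 h. Across all 5 comparisons, 7 members were never above the empty spots. Where a clone was not above them on any array of either pool, it is named below without a ratio. Of 10 clones for 8 markers of the PVN, 3 were above the empty spots in at least 50 of the 100 channels, for Resp18 in 80, Cartpt clone 1 in 73 and Scg2 clone 1 in 65. Thyrotropin releasing hormone (Trh) was above them in 47 channels, vasopressin (Avp) in 29, the second clones of Scg2 and Cartpt in 19 and 18, oxytocin (Oxt) in 4, Nnat in 2 and Peg3 in 0. Of 11 clones for 7 markers of the neighbouring thalamus 4 passed the same mark, Prkcd clone 2 in 100 channels, Tcf7l2 clone 2 in 98, Rora in 77 and a clone of Lef1 in 69, and the other 7 were above them in 0 to 23.

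Between the non-stressed strains, a clone of beta actin, clones of the kinesin heavy chain gene Kif5b and a clone of an alpha tubulin were higher in DBA/2J. A clone of the heavy neurofilament chain was lower. In all, 7 of 178 clones were called, 6 higher and 1 lower. This was 3.93% of the members, where 3.62% of all clones were called, 1.60% higher and 2.02% lower. The share of calls was thus near that of the whole array. The median log2 ratio of the members was 0.08, and that of all clones was 0.01. Of the members 60.7% lay above 0, and of all clones 51.3%. The median of the members was above 0 on each of the 10 arrays, from 0.02 to 0.16. Of the 178 members 100 were not above the empty spots on any array of this comparison. When each orientation entered the fit as 1 mean array 0 members were called, and with all 50 arrays in one fit 12 were.

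Actb codes for beta actin, the main actin of non-muscle cells. Its clone 2 gave log2 ratios from -0.07 to 1.90 with a median of 1.02, and the mean was 0.97 (SE 0.15, n = 10 arrays, limma adjusted p = 0.00209). It was above 0 on 9 of 10 arrays. It ranked 51 of 22824 clones from the top, and 22774 with the sign turned. The arrays of the first dye orientation averaged 0.56 and those of the second 1.37, so the size depended on the orientation and the sign did not. Clone 1 of the same gene, also above the empty spots on every array, gave 0.26 (SE 0.13, adjusted p = 0.375) and did not pass. Clone 3 was above the empty spots on 2 arrays of the DBA/2J pool and on none of the C57BL/6J pool, and gave 0.12.

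Kif5b, the heavy chain of conventional kinesin, was spotted 4 times, and 3 of the clones were called higher in DBA/2J. Clone 2 lay between 0.61 and 0.98 with a median of 0.83, and its mean was 0.82 (SE 0.12, adjusted p = 0.00185). All 10 arrays were above 0, and both orientations gave nearly the same mean, 0.84 and 0.79. Clone 1 ranged from -0.20 to 1.35 around a median of 0.45, with a mean of 0.55 (SE 0.14, adjusted p = 0.0471) and orientation means of 0.18 and 0.91. Clone 4 ranged from -0.16 to 1.30 around a median of 0.48, with a mean of 0.58 (SE 0.15, adjusted p = 0.0477) and orientation means of 0.31 and 0.84. Clones 1 and 4 were above 0 on 8 and 9 of 10 arrays, and each lost its call on leaving out 1 array in 9 of 10 cases, with adjusted p from 0.0583 to 0.112 and from 0.0505 to 0.12. The fourth, clone 3, had a mean of 0.58 (SE 0.20, adjusted p = 0.15) but was above the empty spots on 1 array of each pool. Clone 2 of Kif5b kept its call whichever array was left out, as did clone 2 of Actb and clone 1 of Nefh.

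**Figure D1:**
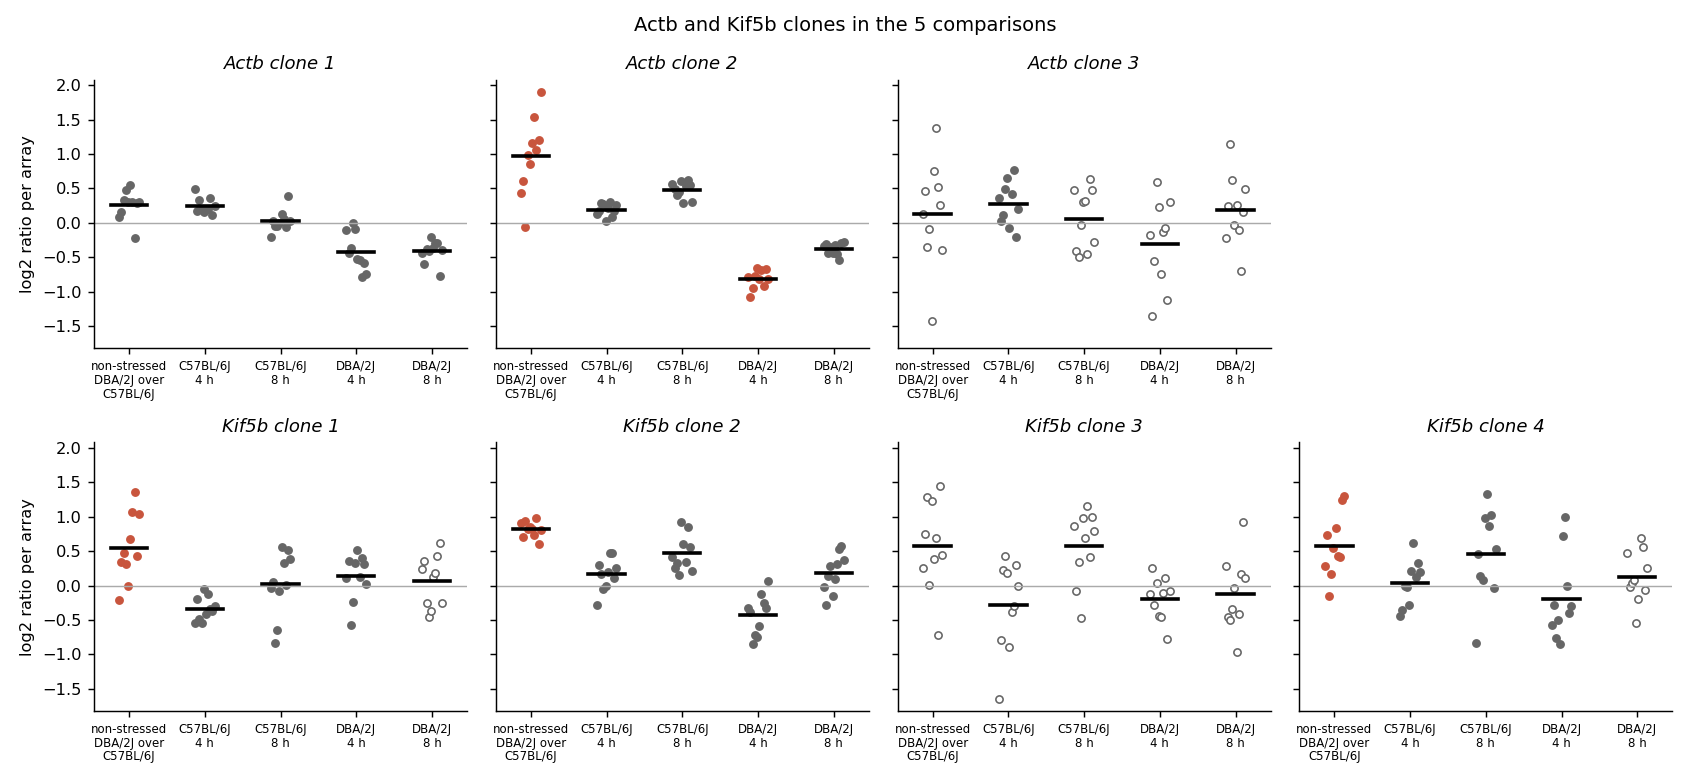
Log2 ratios of each of the 3 Actb clones and 4 Kif5b clones in the 5 comparisons, each point 1 array, with the mean as a line; filled points are clones with at least 5 arrays of either pool above the empty spots, open points are clones with fewer, and red marks a called clone. Between the strains 1 Actb clone and 3 Kif5b clones were called higher in DBA/2J, and clone 2 of Actb lay at or below -0.65 on all arrays of DBA/2J 4 h after stress.

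Nefh, the heavy chain of the neurofilament, was the single member called lower in DBA/2J. Its clone 1 gave log2 ratios from -1.32 to -0.28 with a median of -0.89, and the mean was -0.84 (SE 0.15, adjusted p = 0.00462). The orientations averaged -0.97 and -0.71 and all 10 arrays were below 0, although the spot was above the empty spots on only 4 arrays of each pool. Clone 2 of Nefh was not above the empty spots on any array. The medium chain, Nefm, lay the other way without passing, at 0.39 (SE 0.14, adjusted p = 0.159) for clone 1 and 0.35 (SE 0.13, adjusted p = 0.192) for clone 2. The measured chains of this filament thus lay on both sides of 0, and the light chain, Nefl, was not above the empty spots.

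Among the tubulins, clone 2 of Tuba1c, which the array names tubulin alpha 6, was higher in DBA/2J. Its log2 ratios ran from -0.08 to 1.41 with a median of 0.55, and the mean was 0.61 (SE 0.13, adjusted p = 0.0178), with orientation means of 0.22 and 1.00. It was above 0 on 9 of 10 arrays and lost its call without array 10, at 0.56 (adjusted p = 0.0533). Tuba1b, named tubulin alpha 2, gave 0.06 and -0.07 with its clones 1 and 2, and its arrays lay on both sides of 0. Of all 25 tubulin clones 16 were above 0, with a median of 0.04, and 12 of the 25 were above the empty spots on any array. Map1b, which binds microtubules in growing axons, was called higher on the same rule, but neither pool was above the empty spots on any array and no ratio is given. Mapre2, a member of the family that tracks growing microtubule ends, fell just outside the threshold with clone 2 at 0.59 (SE 0.16, adjusted p = 0.0503) and 10 of 10 arrays above 0.

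**Figure D2:**
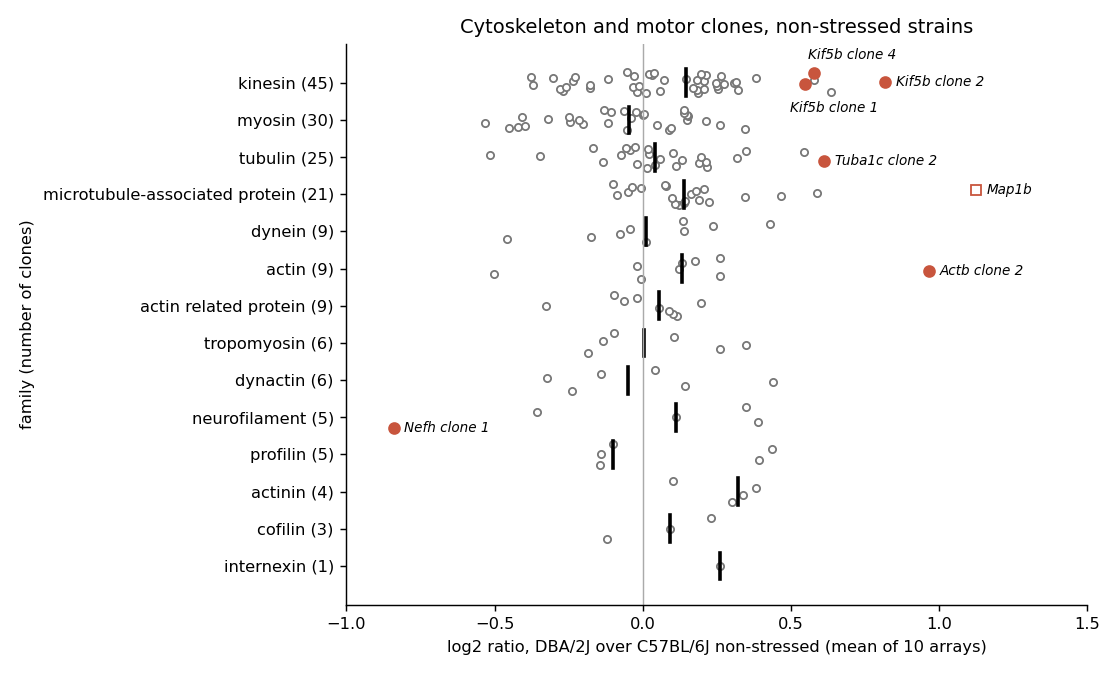
Mean log2 ratio over 10 arrays, DBA/2J over C57BL/6J non-stressed, of each member clone by family, with the family's median as a black bar. Filled red circles are called clones, and the open red square is Map1b, which was called but not above the empty spots. Grey circles did not pass, and some of them lie at ratios as large as those of called clones. Clones not above the empty spots are among the grey circles. The family medians run from -0.10 to 0.32.

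No clone of actinin, the actin related proteins, myosin, dynein, dynactin, tropomyosin, profilin, cofilin or internexin was called between the strains. Of the 4 actinin clones 1 was above the empty spots on any array, Actn1, which cross-links actin filaments and gave 0.30 (adjusted p = 0.326). With the called clones counted in, 29 of 45 kinesin clones were above 0 with a median of 0.15, and 16 of 21 clones of the microtubule-associated proteins with a median of 0.14. Of the myosins 13 of 30 were above 0 with a median of -0.05. Only 20 kinesin, 10 microtubule-associated protein and 8 myosin clones were above the empty spots on any array. These counts and medians therefore include clones at background. Profilin 2 (Pfn2), which binds actin monomers in neurons, gave 0.39 (adjusted p = 0.161) with clone 1. Map2, the microtubule-associated protein of dendrites, gave 0.35 (adjusted p = 0.22) with clone 2. Dync1i1, an intermediate chain of cytoplasmic dynein, was at 0.01. Tubgcp5 clone 3, for a part of the gamma tubulin complex that seeds microtubules, gave -0.52 (adjusted p = 0.12) with all arrays below 0 and 2 arrays of the C57BL/6J pool above the empty spots.

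Some clones of glia, blood, PVN and thalamus markers were called in the same comparison. Of all clones 3.62% were called there, 1.60% higher and 2.02% lower. Of 35 clones on the oligodendrocyte and myelin list 7 were called higher, clones of Mbp among them, and 2 lower, clones of Cnp and Mobp. The summed spot intensity of that list ran from 44488 to 105852 over the arrays in DBA/2J and from 58124 to 98327 in C57BL/6J, and its mean log2 ratio was above 0 on 10 of 10 arrays. Of 34 astrocyte clones 4 were called higher, all of Glul, with sums of 63415 to 186093 in DBA/2J and 56798 to 86278 in C57BL/6J. Of 6 blood clones 2 were called higher, both of the haemoglobin gene Hbb-b1. Of the PVN markers Resp18 was called higher at 0.90 and Scg2 clone 1 lower at -0.81, and of the thalamic markers Tcf7l2 clone 2 at 0.67 and Lef1 clone 1 at 0.74 were higher and Lef1 clone 2 at -0.69 lower. The 25 neuron clones held no call, with log2 ratios from -0.53 to 0.46. The part of these cell types and regions in the ratios of the cytoskeleton clones was not tested.

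At 4 h after stress, the strains differed in actin, tubulin, alpha-internexin and dynein light chain clones, which lay above 0 in C57BL/6J and below 0 in DBA/2J. Single comparisons gave few calls. In C57BL/6J limma called none of the 178 members, where 0.289% of all clones were called, and the lowest adjusted p was 0.105. The methods' t-test also called 0, and 28 members had an unadjusted p under 0.05, which was 15.7% of the members against 12.3% of all clones. In DBA/2J limma called 1 member lower, or 0.562%, where 0.153% of all clones were called, 0.0131% higher and 0.140% lower. The difference of both responses, DBA/2J minus C57BL/6J, was called in 9 members, 1 higher and 8 lower. This was 5.06% of the members, where 2.34% of all clones were called, 1.16% higher and 1.19% lower. Median centring of the arrays in place of loess gave 0 higher and 9 lower.

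Clone 2 of Actb was the called member in DBA/2J. It lay between -1.08 and -0.65 with a median of -0.80, and the mean was -0.82 (SE 0.12, adjusted p = 0.0118). Every array was below 0, both orientations were alike at -0.85 and -0.78, and the call was lost without array 2, which left -0.79 (adjusted p = 0.05003). Clone 1 lay between -0.78 and -0.0021 at -0.42 (SE 0.12, adjusted p = 0.194), also below 0 on every array. In C57BL/6J clone 2 ran from 0.02 to 0.30, with a mean of 0.19 (SE 0.08, adjusted p = 0.358), and clone 1 from 0.12 to 0.49, with a mean of 0.25 (SE 0.08, adjusted p = 0.235). For neither clone did the arrays of the strains overlap, but the share of all clones without overlap was not counted. The difference was -1.01 (SE 0.12, adjusted p = 0.000144) for clone 2 and -0.67 (SE 0.12, adjusted p = 0.00424) for clone 1. Clone 3 gave 0.28 in C57BL/6J and -0.30 in DBA/2J, where it was above the empty spots on at most 2 arrays, and its difference did not pass.

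The promoters of Tuba1b, Ina and Dynlrb1 are shown because these genes lay together below the C57BL/6J response in DBA/2J and were listed in the RefSeq promoter table. Kif21a, which lay the other way, was listed as well, and Actb, Kif5b and Mapre2 were not found there. The 100 bases before each transcription start of assembly GRCm38.p6 are given 5′ to 3′ on the gene's strand, with the letters of a GC box, GGGCGG or its reverse CCGCCC, in capitals. For Dynlrb1 the first of 2 listed starts was used. The windows are chr15:98934391-98934490 on the minus strand for Tuba1b, chr19:47014581-47014680 on the plus strand for Ina and chr2:155236433-155236532 on the plus strand for Dynlrb1.
Tuba1b: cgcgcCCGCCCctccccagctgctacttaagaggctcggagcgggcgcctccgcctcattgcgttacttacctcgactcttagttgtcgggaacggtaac
Ina: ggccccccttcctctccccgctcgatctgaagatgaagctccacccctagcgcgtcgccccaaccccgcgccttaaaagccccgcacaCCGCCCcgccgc
Dynlrb1: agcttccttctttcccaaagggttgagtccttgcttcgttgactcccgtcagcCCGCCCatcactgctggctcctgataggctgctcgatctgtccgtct
Over the 250 bases before the start, on both strands, each of the 3 held the GC box and none held the TATA box letters TATAAA, the CCAAT box letters CCAAT or the letters TGTTCT of a glucocorticoid receptor half-site. The GC box was in 32.7% of all 32851 promoters of the table and in 54.9% of the 102 promoters listed for 88 member genes. The shares in all promoters and in member promoters were 12.4% and 12.7% for TATAAA, 33.8% and 32.4% for CCAAT, and 16.1% and 11.8% for TGTTCT. These are letter matches in a window, and binding was not measured.

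Tuba1b, an alpha tubulin of brain, lay above 0 in C57BL/6J and mostly below 0 in DBA/2J at 4 h with both clones. In C57BL/6J clone 1 ran from 0.08 to 0.59 with a median of 0.36 and a mean of 0.33 (SE 0.08, adjusted p = 0.12), and clone 2 from 0.07 to 0.64 with a median of 0.28 and a mean of 0.32 (SE 0.09, adjusted p = 0.15). In DBA/2J clone 1 ran from -0.76 to 0.13 with a mean of -0.31 (SE 0.14, adjusted p = 0.434), and clone 2 from -0.97 to 0.10 with a mean of -0.46 (SE 0.13, adjusted p = 0.214). None of the 4 ratios passed alone, and the arrays of the strains overlapped narrowly. The difference was -0.64 (SE 0.14, adjusted p = 0.0193) for clone 1 and -0.79 (SE 0.15, adjusted p = 0.00465) for clone 2. Of all 25 tubulin clones 18 had a difference below 0, with a median of -0.22. All 25 were above the empty spots on any array in C57BL/6J, and 14 in DBA/2J. In C57BL/6J alone 18 of 25 tubulin clones were above 0, with a median of 0.14, and the largest with every array above 0 was Tuba1c clone 2 at 0.35 (SE 0.08, adjusted p = 0.105).

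Ina, alpha-internexin, gave values from -0.33 to 0.85 in C57BL/6J with a mean of 0.26 (SE 0.13, adjusted p = 0.473). In DBA/2J it ran from -1.64 to -0.05 with a median of -0.68 and a mean of -0.71 (SE 0.14, adjusted p = 0.0724), below 0 on all 10 arrays. The stressed DBA/2J pool was above the empty spots on 1 of 10 arrays and the non-stressed pool on 8. The difference was -0.96 (SE 0.19, adjusted p = 0.00557), with overlapping arrays. Dynlrb1, a light chain of cytoplasmic dynein, ran from 0.01 to 0.64 in C57BL/6J with a mean of 0.30 (SE 0.10, adjusted p = 0.219) and from -1.07 to 0.30 in DBA/2J with a mean of -0.48 (SE 0.12, adjusted p = 0.15). Its difference was -0.78 (SE 0.14, adjusted p = 0.00343), and 1 of the 10 DBA/2J arrays was above 0.

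Kif5b clone 2 had a mean of 0.16 in C57BL/6J and of -0.42 (SE 0.12, adjusted p = 0.217) in DBA/2J, and its difference was -0.59 (SE 0.14, adjusted p = 0.0256). The other clones of Kif5b did not share this. Clone 1 lay below 0 on all 10 arrays in C57BL/6J, from -0.55 to -0.06 with a mean of -0.34 (SE 0.09, adjusted p = 0.148), and gave 0.14 in DBA/2J. Mapre2 clone 2 gave 0.27 in C57BL/6J and -0.28 in DBA/2J, a difference of -0.55 (SE 0.14, adjusted p = 0.044), while clone 1 gave -0.03 and 0.07. Kif21a, a kinesin that slows microtubule growth, was the single member with a called difference above 0. Its clone 1 ran from -0.85 to 0.09 in C57BL/6J with a mean of -0.46 (SE 0.11, adjusted p = 0.126) and from -0.44 to 0.75 in DBA/2J with a mean of 0.14, a difference of 0.61 (SE 0.15, adjusted p = 0.0365). The call was lost on leaving out 1 array in 13 of 20 cases for Kif21a, in 17 of 20 for Mapre2 and in 4 of 20 for Kif5b, with adjusted p of at most 0.0777, 0.0847 and 0.0549. The other 6 calls, in Actb, Tuba1b, Ina and Dynlrb1, were kept in all 20.

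**Figure D3:**
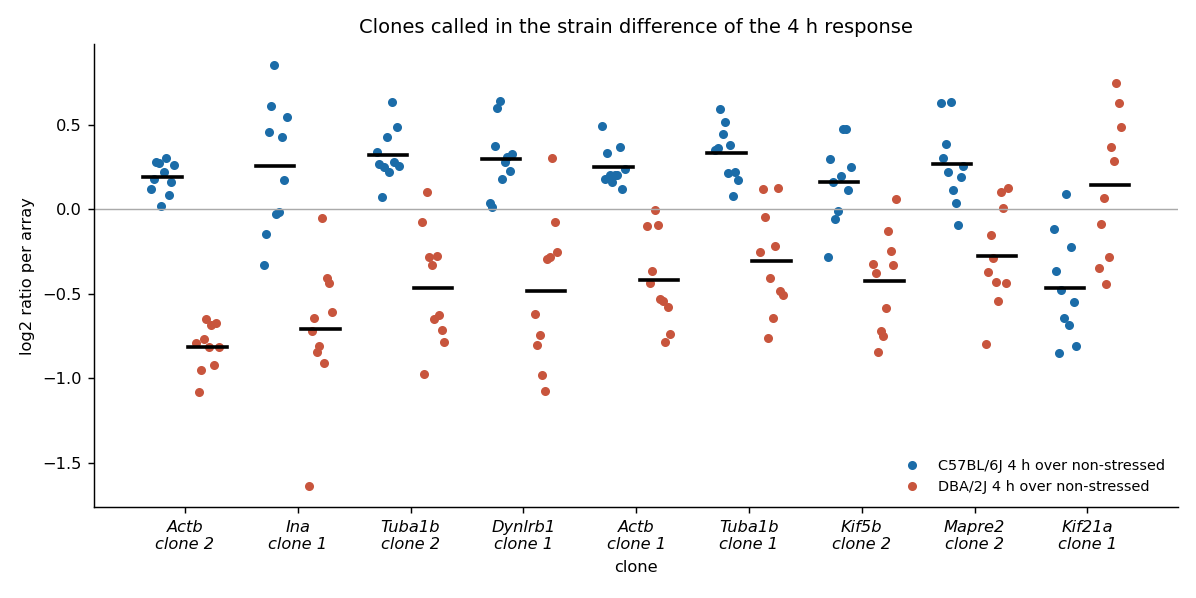
Log2 ratios 4 h after stress, stressed over non-stressed, of the 9 clones with a called strain difference, each point 1 of 10 arrays per strain and the line their mean. The arrays of the strains do not overlap for either Actb clone and overlap for the other 7 clones. The 9 clones were picked by their difference on these same arrays. The share of all clones whose arrays do not overlap was not counted.

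Some clones of neuron, astrocyte and PVN markers also had a called strain difference at 4 h. Of all clones 2.34% were called there, 1.16% higher and 1.19% lower. Of 25 neuron clones 2 had a called difference, both lower in DBA/2J, and the median over the list was -0.20. They were Syn1 clone 2 of 2 and Eno2 clone 3 of 5. The summed intensity of the neuron list ran from 16004 to 51671 in the stressed and from 18467 to 54118 in the non-stressed DBA/2J pool, and from 35391 to 61542 and from 19932 to 68847 in C57BL/6J. Of 34 astrocyte clones 3 were called lower, clones of Glul and Aldoc, with a median of -0.13, and of the PVN markers Trh was called at -1.08 and Resp18 at -0.55 (adjusted p = 0.0334). All 6 blood clones lay below 0, from -0.39 to -0.28 with a median of -0.35, and none was called. The part of these shifts in the differences of the cytoskeleton clones was not tested. The 45 kinesin clones, the called ones included, were balanced at 25 differences above 0 with a median of 0.02. Of these 45, 42 were above the empty spots on any array in C57BL/6J and 22 in DBA/2J.

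At 8 h after stress, clone 2 of beta actin lay above 0 in C57BL/6J and below 0 in DBA/2J. Neither strain alone gave a call among the members. In C57BL/6J limma called 0 of 178, where 0.0832% of all clones were called, with a lowest adjusted p of 0.148. The methods' t-test called 0 as well, and 19 members had an unadjusted p under 0.05, or 10.7% against 9.28% of all clones. In DBA/2J limma called 0, where 0.158% of all clones were called, with a lowest adjusted p of 0.0564. There the methods' t-test called 1, and 25 members had an unadjusted p under 0.05, or 14% against 12.0% of all clones. The difference between the strains was called in 2 members, 1 higher and 1 lower, which was 1.12% where 0.600% of all clones were called, 0.206% higher and 0.394% lower.

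Clone 2 of Actb was the lower of these. In C57BL/6J it ran from 0.29 to 0.63 with a median of 0.51 and a mean of 0.48 (SE 0.11, adjusted p = 0.148), above 0 on 10 arrays. In DBA/2J it ran from -0.54 to -0.28 with a median of -0.34 and a mean of -0.38 (SE 0.08, adjusted p = 0.0896), below 0 on 10 arrays. The arrays of the strains did not overlap, but the share of all clones without overlap was not counted. The difference, by which the clone was picked, was -0.86 (SE 0.11, adjusted p = 0.000213). Clone 1 gave 0.03 in C57BL/6J and -0.42 (SE 0.09, adjusted p = 0.0939) in DBA/2J, a difference of -0.44 that did not pass (adjusted p = 0.12), and clone 3 was not above the empty spots on any array of either strain. Of the markers, the strain difference at 8 h was called for Tcf7l2 clone 2 of the thalamus list at -0.80 and Glul clone 2 of the astrocyte list at 0.66, and the part of these in the differences of Actb was not tested. The other called member was Myo1a, an unconventional myosin of the cell cortex, called above 0 (adjusted p = 0.0339). In DBA/2J at 8 h neither pool was above the empty spots on any array for this clone, so that the difference is no measured fold, and the call was lost in 15 of 20 cases when 1 array was left out, with adjusted p of at most 0.0755.

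Other members gave values near the threshold at 8 h. In C57BL/6J, Mapt clone 3, the axonal microtubule-associated protein tau, ran from 0.11 to 1.10 with a mean of 0.56 (SE 0.14, adjusted p = 0.222), while clone 2 gave 0.01. Kif5b clone 2 ran from 0.16 to 0.92 with a mean of 0.47 (SE 0.12, adjusted p = 0.259). All 5 neurofilament clones were below 0, with a median of -0.27, and 4 of them were above the empty spots on any array. Nefm clone 2 gave -0.53 (SE 0.19, adjusted p = 0.395). The spots of its numerator pool had a median intensity of 1516 in this comparison against 27240 to 56520 in the other 4. These intensities come from different arrays and do not measure a change after stress. The clones of Kif3b, a motor subunit of kinesin-2, went apart, clone 1 at -0.50 (SE 0.13, adjusted p = 0.24) and clone 2 at 0.45 (SE 0.14, adjusted p = 0.34), and both were above the empty spots on at most 3 arrays of a pool.

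Kifap3, the adaptor that links kinesin-2 to its cargo, had the lowest adjusted p in DBA/2J at 8 h. Clone 3 ran from -0.79 to -0.14 with a median of -0.50 and a mean of -0.50 (SE 0.09, adjusted p = 0.0564). Clone 2 ran from -0.71 to -0.15 with a mean of -0.39 (SE 0.09, adjusted p = 0.122), and clone 1 gave -0.24 (SE 0.09, adjusted p = 0.29). Clones 2 and 3 were below 0 on all 10 arrays, and all 3 clones lay on the same side. Of 6 dynactin and 9 dynein clones only 2 and 4 were above the empty spots on any array. Above 0 on all 10 arrays were Nefm clone 2 at 0.26 (SE 0.08, adjusted p = 0.22) and Myo6, a myosin that moves toward the minus end of actin, at 0.25 (SE 0.08, adjusted p = 0.235).

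The responses at 8 h and 4 h were then set against each other within each strain, where the shared non-stressed pool cancels. In C57BL/6J limma called 0 members, where 0.495% of all clones were called, with a lowest adjusted p of 0.111, for Tuba1c clone 2 at -0.46. There 21 members had an unadjusted p under 0.05, or 11.8% against 10.7% of all clones. In DBA/2J 4 members were called, 3 higher and 1 lower, which was 2.25% where 1.00% of all clones were called, 0.561% higher and 0.443% lower. Kif5b clone 2 was higher at 8 h by 0.61 (SE 0.14, adjusted p = 0.0402), Dynlrb1 by 0.58 (SE 0.14, adjusted p = 0.0466) and Map4 clone 2, a microtubule-associated protein of many tissues, by 0.58 (SE 0.13, adjusted p = 0.0451). Kifap3 clone 2 was the lower one, at -0.62 (SE 0.14, adjusted p = 0.0349). Median centring in place of loess left 0 higher and 1 lower.

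In DBA/2J the dynein light chain Dynlrb1 thus moved from -0.48 at 4 h to 0.10 at 8 h, and Kif5b clone 2 from -0.42 to 0.18. Map4 clone 2 moved from -0.34 to 0.23, and Kifap3 clone 2 from 0.23 to -0.39. All 4 calls were close to the threshold and were lost in 14 to 19 of 20 cases when 1 array was left out, with adjusted p of at most 0.0925. Just outside it, Tuba1b clone 2 differed by 0.58 (SE 0.14, adjusted p = 0.0502), Ina by 0.78 (SE 0.20, adjusted p = 0.0681) and Actb clone 2 by 0.44 (SE 0.12, adjusted p = 0.0799). Of the markers, Aldoc and Trh were called higher at 8 h in the same contrast, at 0.70 and 0.81.

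**Figure D4:**
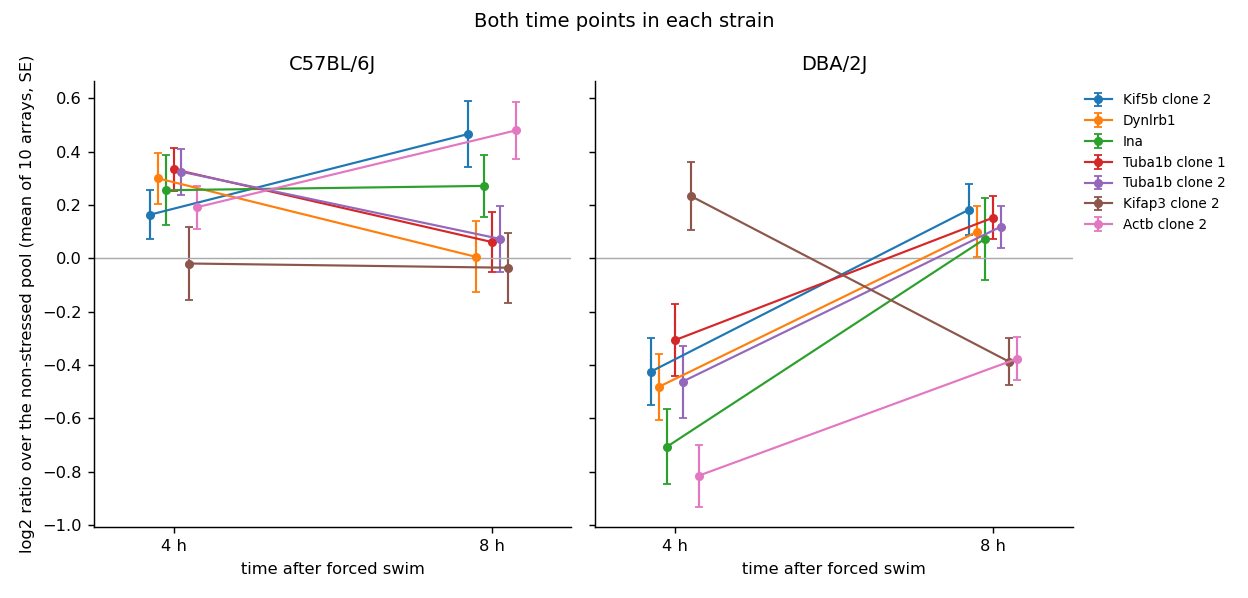
Mean log2 ratio over 10 arrays with its SE, stressed over non-stressed, at 4 h and 8 h in both strains, for 7 clones of Actb, Tuba1b, Ina, Dynlrb1, Kif5b and Kifap3. At 4 h the DBA/2J means of Actb, Tuba1b, Ina, Dynlrb1 and Kif5b lie below 0 and those of C57BL/6J above, and at 8 h the means of Actb clone 2 still do.

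Clones that carry the same gene name often gave different ratios. Among the 43 names with more than 1 clone, all clones of a name had the same sign in 19 names in the strain comparison, 19 and 24 in C57BL/6J at 4 h and 8 h, and 20 and 19 in DBA/2J. The spread between the highest and lowest clone of a name had a median of 0.15 to 0.28 over the 5 comparisons and reached 0.95. Gene-level statements above therefore rest on the clone named and not on the gene as a whole.

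Genes that regulate the cytoskeleton without being members by name were counted from lists. Of 58 clones of actin regulators 4 were called between the strains, where 3.62% of all clones were called. Radixin (Rdx), which ties actin to the membrane, was higher in DBA/2J at 0.73 with clone 4, and gelsolin (Gsn), which severs actin filaments, was lower at -0.88, as were Enah at -0.74 and Tmod2 at -0.63. At 4 h the strain difference was called for Rdx clone 3 at 0.67 and Lasp1 clone 1 at -0.78. Of all clones 2.34% were called there. Of 46 microtubule regulators, stathmin 1 (Stmn1), which binds free tubulin, was higher in DBA/2J at 0.74 and had a 4 h strain difference of -0.56. Dpysl2, a tubulin-binding protein of growing axons, was called in C57BL/6J at -0.72 with clone 1 at 4 h and at 0.94 with clone 3 at 8 h. Of all clones 0.289% and 0.0832% were called in these comparisons. The clones differ, so the values do not trace a single clone over time. In C57BL/6J, 8 h minus 4 h was called higher for clone 1 at 0.56 and clone 3 at 0.92. On the list of the membrane skeleton, Sptan1 clone 2 had an 8 h strain difference of 0.63, where 0.600% of all clones were called. The 16 septin clones and the 12 clones of other intermediate filaments and their linkers held no call by limma, with log2 ratios between the strains from -0.41 to 0.50 and from -0.20 to 0.43.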

How the data were processed

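Spot and local background intensities were quantified by the authors with QuantArray from ScanArray images and deposited as linear intensity values for each of 50 arrays of 24192 spots, of which 1368 were controls. A second deposited table holds the authors' normalized log2 ratios for 19047 spots, 147 of them members, and was used as an alternative. Intensities were corrected with normexp (offset 50) and normalized by global loess within each array in limma 3.58.1 (R 4.3.3), and each ratio was turned to the labelled direction. Each comparison was fitted over its 10 arrays with a dye term, and each difference of 2 comparisons over 20 arrays. Python 3.11.15 with numpy 2.4.6, pandas 2.3.3 and matplotlib 3.10.9 served for tables and figures. The scripts were tested on simulated data. The number of arrays, and the lack of replicate pools, limits the precision.

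The files name clones but pair them with no gene identifier. Symbols were assigned from the clone names for 108 of the 111 member names and checked against RefSeq, and promoter sequences came from RefSeq (GRCm38.p6). Clones of the same gene were kept apart and numbered in spot order. Clones named in the text were those called in any test, the 3 highest and 3 lowest per comparison with the same sign in both dye orientations, members that tables of the study name, the brightest of each family, and all other clones of those genes. The names of Myo5a, Actr3 and Map1lc3a in the study's tables did not match a member name, and these are not analysed here. Members and gene lists were chosen with earlier results of these data known. Replicate numbers shared between comparisons do not pair the arrays. Alternatives were other background corrections and normalizations, leaving out dim clones or the dye term, the one-sample t-test of the methods, scan day as a random block, each orientation alone, 1 fit over all arrays, a replicate block and each array left out in turn. Some results for genes on the marker and regulator lists are not reported here.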

Additional observations from a re-analysis of the deposited data

Results flagged for a closer look

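On 2 clones 1 array stood apart from the other 9 of its comparison, among 38 groups of arrays examined, where chance sets apart about 1 in 20 groups. Myl1 clone 1 was at -1.43 on array 6 of C57BL/6J 4 h after stress, with a median of 0.47 over the 10 arrays. Nefm clone 2 was at -1.87 on array 6 of C57BL/6J 8 h after stress, with a median of -0.56.

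Limma's test of the difference itself called 15 results between the strains or the time points. Each compares single pools and leaves out the spread between animals. The strain differences at 4 h and 8 h share their non-stressed pools, so they are not separate findings. At 4 h, DBA/2J minus C57BL/6J, the log2 differences were -1.01 for Actb clone 2, -0.67 for Actb clone 1, -0.96 for Ina, -0.79 for Tuba1b clone 2, -0.64 for Tuba1b clone 1, -0.78 for Dynlrb1, -0.59 for Kif5b clone 2, -0.55 for Mapre2 clone 2 and 0.61 for Kif21a clone 1. At 8 h they were -0.86 for Actb clone 2 and, as the value of the test, 0.57 for Myo1a, which is no measured fold because its spots in DBA/2J at 8 h were not above the empty spots. In DBA/2J, 8 h minus 4 h, they were 0.61 for Kif5b clone 2, 0.58 for Dynlrb1, 0.58 for Map4 clone 2 and -0.62 for Kifap3 clone 2. When 1 array was left out, the calls of Kif21a, Mapre2 and Myo1a and all those of 8 h minus 4 h were lost in 13 to 19 of 20 cases. The 4 h call of Kif5b clone 2 was lost in 4 of 20.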

How the results depend on the processing

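The counts of members called depended on the fit, and no result changed its direction. The counts of all clones called under each alternative are not given, here or above. A shift of the member count therefore cannot be told from a shift of the whole array. Between the non-stressed strains 7 clones were called, against 12 with median centring, 12 with all 50 arrays in one fit, 4 without a dye term, 0 with the arrays of each orientation averaged, 0 with arrays 1 to 5 alone and 1 with arrays 6 to 10 alone. In C57BL/6J at 8 h the count of 0 became 1 with the filter on dim clones and 3 with all arrays in one fit. In DBA/2J at 4 h the count of 1 became 2 with print-tip loess, median centring, the filter, the authors' values or all arrays in one fit, and 0 with orientations averaged or either orientation alone. In DBA/2J at 8 h the count of 0 became 2 with median centring and 1 with the filter, the methods' t-test, scan day as a random block or all arrays in one fit. The strain difference at 8 h, 2 clones, became 1 with the authors' values and 7 with all arrays in one fit. For 8 h minus 4 h, C57BL/6J went from 0 to 1 with median centring or the authors' values, and DBA/2J from 4 to 1 with median centring, 8 with the authors' values and 7 with a joint fit of all arrays. The cause of these shifts was not tested. The strain difference at 4 h stayed within 7 to 10 called clones in the alternatives that kept all arrays.

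Leaving out each array in turn gave 4 to 7 calls between the non-stressed strains, with 4 only without array 10, and 0 to 1 in DBA/2J at 4 h, with 0 only without array 2. It gave 6 to 9 for the strain difference at 4 h, 1 to 2 at 8 h, 0 to 3 for DBA/2J 8 h minus 4 h, and 0 throughout in the other 4 tests. With the replicate number as a replicate block the differences gave 9, 3, 0 and 4 calls. The numbers do not pair the arrays, since the correlation of same-numbered arrays lay between -0.02 and 0.02 and at most 1 of 10 correlated best with its own number. For single clones 964 alternatives kept direction and side of the threshold, 180 lost and 16 gained the call. With the filter on dim clones the median of the members moved from 0.08 to 0.14 between the strains and from -0.03 to -0.08 in DBA/2J at 8 h. Signal over background was weakest in DBA/2J at 8 h, where 137 of 178 members were above the empty spots on no array.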

Other observations

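Adding the ratio of the non-stressed pools to the difference of the responses gives the ratio of the stressed pools, DBA/2J over C57BL/6J, which no array measured directly. At 4 h it was -0.04 (SE 0.19) for Actb clone 2, where the non-stressed pools gave 0.97, and -0.41 (SE 0.18) and -0.46 (SE 0.31) for clones 1 and 3, where they gave 0.26 and 0.12. The clones of Kif5b went apart, at 1.02 (SE 0.21) for clone 1, 0.23 (SE 0.19) for clone 2, 0.68 (SE 0.31) for clone 3 and 0.34 (SE 0.23) for clone 4, where the non-stressed pools gave 0.55, 0.82, 0.58 and 0.58. It was -0.86 (SE 0.20) for Tuba1b clone 2, -0.58 (SE 0.20) for Tuba1b clone 1, -0.70 (SE 0.24) for Ina and -0.35 (SE 0.19) for Dynlrb1. No sum is given at 8 h for Actb clone 3, which was not above the empty spots on any array there. At 8 h the sum was -0.18 (SE 0.18) and 0.11 (SE 0.19) for Actb clones 1 and 2. For Kif5b clones 1 to 4 it was 0.58 (SE 0.22), 0.53 (SE 0.19), -0.11 (SE 0.30) and 0.25 (SE 0.27). It was 0.79 (SE 0.18) for Tuba1c clone 2 and 0.52 (SE 0.20) for Dynlrb1. The terms share the non-stressed pools, these sums were not tested, and the SE leaves out the spread between animals.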
